A study of Homo sapiens with 6 samples.

Results

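Amino acid transporters of the plasma membrane and the lysosome were measured as mRNA in HCT116 cells, a human colorectal cancer cell line, after TR-107. TR-107 activates the mitochondrial protease ClpP. The members are 35 named genes of the SLC1, SLC3, SLC6, SLC7, SLC36, SLC38, SLC43 and related families, taken from the 28395 gene IDs of the count tables by matching each ID to its symbol. Their names were given, not picked by a threshold on these values. Cells of both groups were grown in McCoy's 5a medium with serum, seeded in multiwell plates and treated a day later. One group received 50 nM TR-107 and the other received 0.1% DMSO, the vehicle, each for 24 hours with 3 libraries. The design is 1 cell line at 1 dose and 1 time.

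Per the design text the 3 libraries of each group are biological replicates, without word on whether they came from separate passages or days, and a p-value can reflect no more than the scatter among them. The TR-107 libraries held 17264039 to 22243758 counts and the DMSO libraries 18344471 to 23708135. Of 10 colorectal epithelial markers, 8 passed the filter on low counts, while VIL1 and LGALS4 were near 0. After TR-107, 5 were higher and 1, CDX2, was lower (75% called, beside 57.8% of all tested genes). The 10 markers summed to 5867 to 5985 counts per 1000000 (CPM) in TR-107 libraries and 5295 to 5349 CPM in DMSO libraries. Leukocyte markers summed to 0.0584 to 0.466 CPM and 0 to 0.214 CPM in the same order, with PTPRC and CD3E among those at 0 in all 6 libraries. Endothelial markers summed to 0.493 to 0.993 CPM and 0.331 to 0.696 CPM. Fibroblast markers summed to 16.2 to 18.3 CPM and 13.3 to 16.5 CPM, nearly all from COL1A1. Because counts are scaled to each library's total, a change in one gene's mRNA and a change in the RNA content of the cell cannot be told apart.

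Amino acids cross the plasma membrane through a few kinds of carrier. Obligatory exchangers such as the SLC7 light chains, which need the heavy chain SLC3A2 or SLC3A1 to reach the surface, swap one amino acid for another, while sodium-coupled carriers of the SLC1, SLC6 and SLC38 families pull them in against a gradient. Lysosomal carriers return the products of protein breakdown to the cytosol, and some of them report lysosomal amino acids to the growth kinase complex mTORC1. Several surface carriers are textbook targets of ATF4, a transcription factor made when amino acids are short or mitochondria are stressed, which binds with C/EBP proteins to the motif TGATGNAA.

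Promoter stretches are shown for all 6 members whose promoter window holds that motif. Of these, 5 were among the genes with higher mRNA after TR-107 and 1 was among those with lower mRNA. The sequences are from RefSeq on GRCh38.p14, where each window runs from 250 bases before to 50 bases after an annotated start, and 29 of the 35 members had at least 1 window. Each stretch reads 5′ to 3′ along the gene, and capitals mark the motif, which reads TTNCATCA where it lies on the antisense strand. They are SLC1A4 (chr2:64989324-64989423, plus strand), SLC7A1 (chr13:29595664-29595763, minus strand), SLC38A1 (chr12:46266492-46266591, minus strand), SLC1A5 (chr19:46784865-46784964, minus strand), SLC3A2 (chr11:62881719-62881748, plus strand) and SLC1A3 (chr5:36596338-36596437, plus strand).
SLC1A4: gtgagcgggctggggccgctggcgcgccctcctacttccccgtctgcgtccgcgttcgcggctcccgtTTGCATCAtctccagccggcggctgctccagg
SLC7A1: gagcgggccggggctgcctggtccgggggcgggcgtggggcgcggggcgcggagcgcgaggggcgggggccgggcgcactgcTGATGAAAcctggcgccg
SLC38A1: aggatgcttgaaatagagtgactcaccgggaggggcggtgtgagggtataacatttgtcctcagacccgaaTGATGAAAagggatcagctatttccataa
SLC1A5: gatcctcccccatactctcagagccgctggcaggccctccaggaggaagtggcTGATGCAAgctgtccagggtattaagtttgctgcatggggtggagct
SLC3A2: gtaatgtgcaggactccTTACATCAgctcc
SLC1A3: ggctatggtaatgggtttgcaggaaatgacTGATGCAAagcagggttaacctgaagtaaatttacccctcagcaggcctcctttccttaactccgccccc

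In SLC1A4, SLC7A1, SLC38A1 and SLC3A2 the match lies within 50 bases of an annotated start. In SLC1A5 it spans positions −97 to −90 and in SLC1A3 positions −220 to −213 from an annotated start. The start used lies inside the gene's annotated span for SLC1A4, SLC38A1, SLC3A2 and SLC1A5, and at its outer end for SLC7A1 and SLC1A3. On either strand, TGATGNAA occurred in the windows of 6 of 29 members (20.7%), against 1217 of 27303 genes of the whole table (4.46%). Counted by window, it was 6 of 51 member windows (11.8%) against 1270 of 35114 (3.62%). A gene with several starts has more chances of a match. By call, the motif was in 5 of the 12 members that were higher after TR-107 and in 1 of the 8 lower members that had a window. It was in 0 of 5 members with a window that were not called and in 0 of 4 that were not tested. A match describes the letters of a window and not a bound site.

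After 24 hours of TR-107, 12 transporter mRNAs were higher and 11 were lower among the 29 members that passed the filter on low counts, and 6 of the 29 did not pass the test (edgeR's quasi-likelihood test, adjusted p under 0.05 after Benjamini-Hochberg adjustment over 13767 genes). The share called was 79.3% of tested members; 57.8% of all tested genes were called. By direction, 29.2% of all tested genes were higher and 28.6% were lower. Changes of at least 2-fold were seen in 7 members that were higher and 5 that were lower, against 6.55% and 3.71% of all tested genes, 10.3% in all. The median log2 fold change over the tested members was 0.13, with a range of −1.84 to 2.32, beside a median of 0.01 over all tested genes; the members' median was −0.01 without TR-107 replicate 1 or without DMSO replicate 2. The other 6 members had too few counts for the test.

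**Figure D1:**
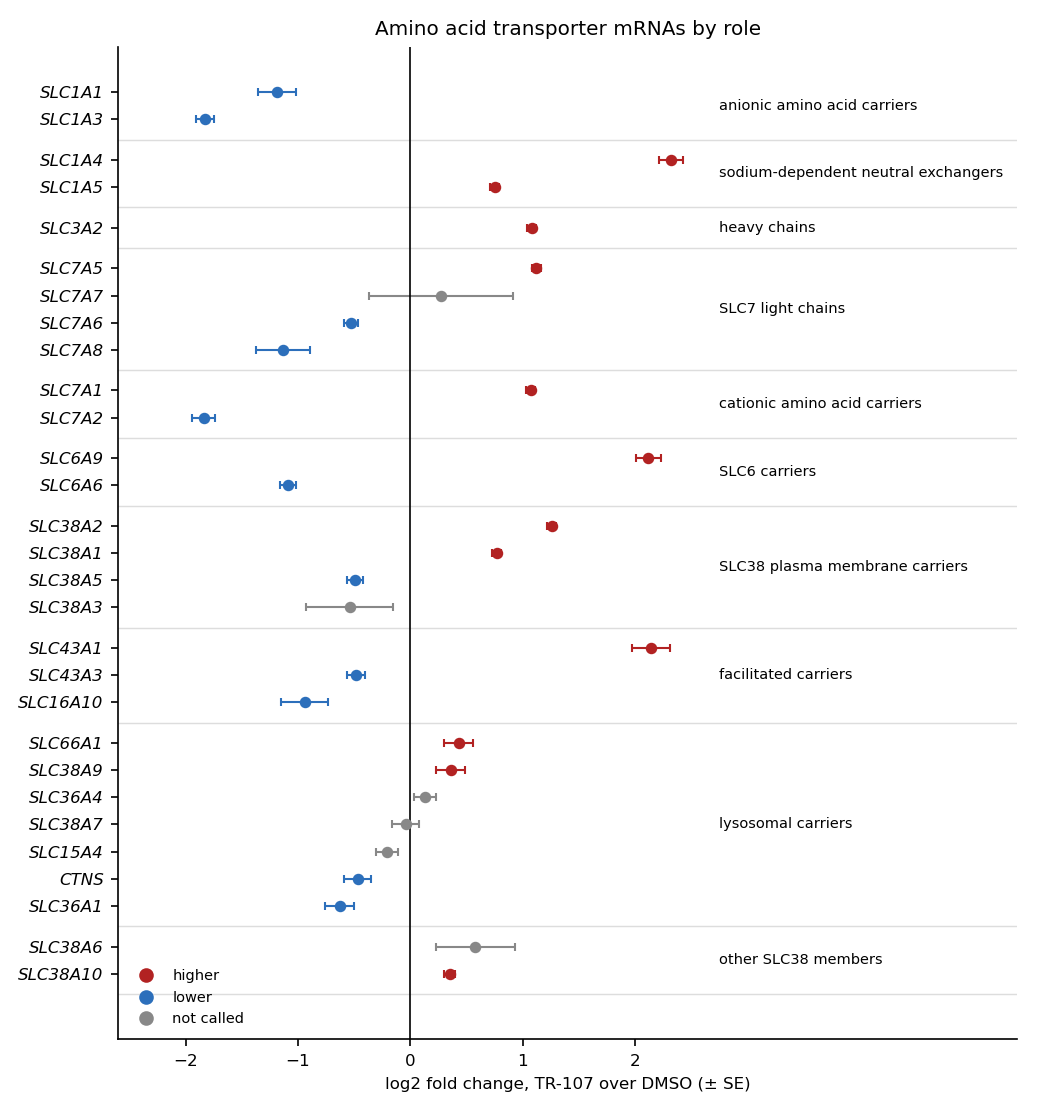
The log2 fold change of each tested transporter, TR-107 over DMSO, is plotted by role, with bars of 1 standard error and colours for the call at an edgeR adjusted p under 0.05. Surface carriers spread from −1.84 to 2.32, while the 7 lysosomal carriers lie between −0.63 and 0.43.

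Changes in both directions were seen at the surface. Of the 20 tested plasma membrane carriers, 9 were higher, 9 were lower and 2 did not pass the test, with a median log2 fold change of −0.11. The share called was 90%, beside 57.8% of all tested genes. The calls over all tested genes were also split, with 29.2% higher and 28.6% lower. The plot of family members by library shows the SLC1, SLC6, SLC7, SLC38 and SLC43 families each holding genes that moved in both directions.

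**Figure D2:**
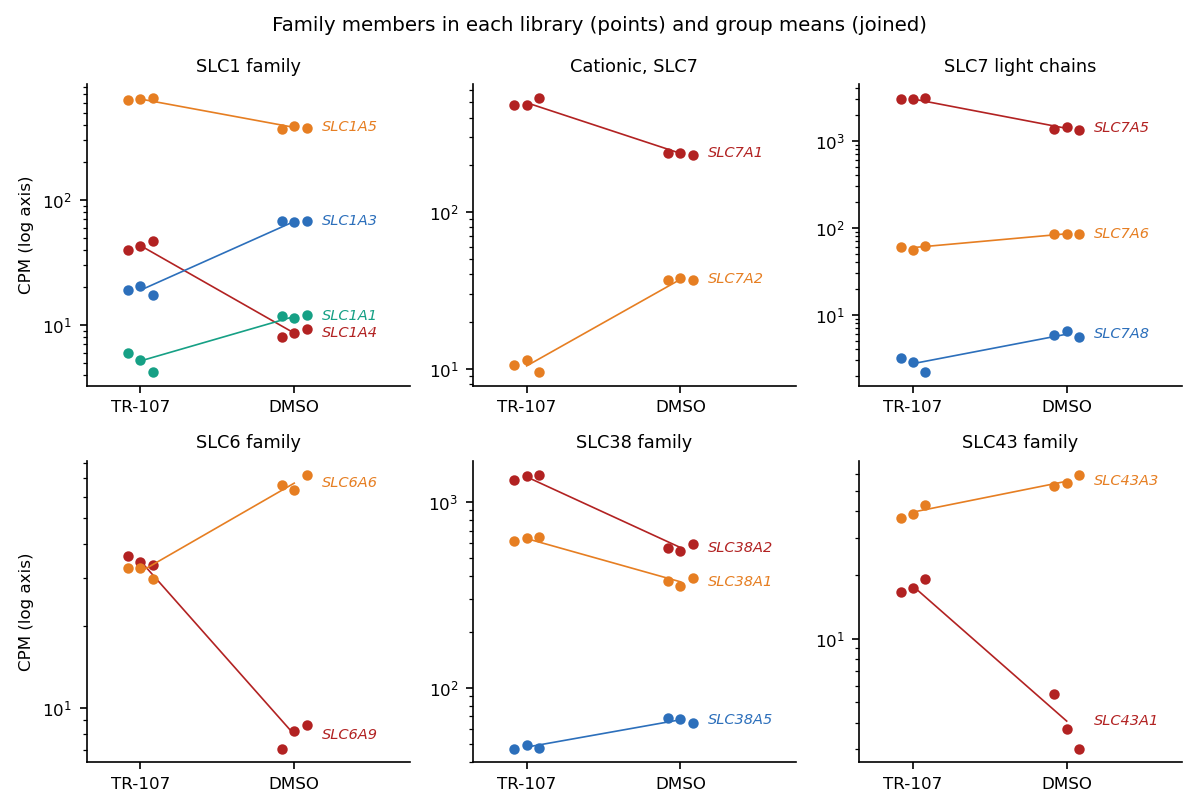
CPM of family members in each library on log axes, with TR-107 on the left, DMSO on the right, points for libraries and lines joining group means. Only called surface members are drawn, from families with calls in both directions. By this choice, each of the 6 panels, covering 5 families, holds at least 1 gene with all TR-107 points above its DMSO points. Each also holds at least 1 gene with all of them below. Over all tested genes, all TR-107 libraries were higher for 31.5% and lower for 30.9%.

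Both sodium-dependent neutral exchangers rose. SLC1A4 (gene ID 6509, chr2:64988479-65023865), a carrier of alanine, serine and cysteine whose promoter stretch is shown above, had 39.5, 43.0 and 47.1 CPM in TR-107 libraries and 7.97, 8.65 and 9.22 CPM in DMSO libraries. Every TR-107 library lay far above every DMSO library. The log2 fold change was 2.32 ± 0.11 (SE; a 5.00-fold rise; edgeR adjusted p = 2.09e-22), the highest among the tested members. SLC1A5, a carrier of glutamine and other neutral amino acids, had 636, 640.0 and 653 CPM in TR-107 libraries and 373, 394 and 377 CPM in DMSO libraries. The groups were far apart and the libraries within each were close, and the rise was 1.69-fold (log2 fold change 0.75 ± 0.04 SE, edgeR adjusted p = 9.11e-21). Per kilobase of exon, the level of SLC1A4 was 0.0441, 0.0477 and 0.0513 of that of SLC1A5 in TR-107 libraries, against 0.0152, 0.0156 and 0.0173 in DMSO libraries, so SLC1A4 remained the minor member.

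The anionic carriers of the same SLC1 family fell. SLC1A3 (gene ID 6507, chr5:36596588-36688334), a glutamate and aspartate carrier, had 18.9, 20.7 and 17.4 CPM in TR-107 libraries and 67.6, 66.2 and 68.4 CPM in DMSO libraries. The groups did not overlap, and the log2 fold change was −1.83 ± 0.08 (SE; 3.55-fold lower; edgeR adjusted p = 1.14e-22). SLC1A1, the other glutamate carrier, had 6.02, 5.26 and 4.19 CPM in TR-107 libraries and 11.7, 11.4 and 12 CPM in DMSO libraries. Its TR-107 libraries were all lower and spread more widely, at 2.28-fold lower (log2 fold change −1.19 ± 0.17 SE, edgeR adjusted p = 1.1e-07). The level of SLC1A3 per kilobase was 2.81, 3.51 and 3.70 times that of SLC1A1 in TR-107 libraries and 5.15, 5.18 and 5.09 times in DMSO libraries.

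The heavy chain SLC3A2 (gene ID 6520, chr11:62856109-62888860) and the light chain SLC7A5 (gene ID 8140, chr16:87830023-87869507) form the large neutral amino acid exchanger LAT1. SLC3A2 had 774, 785 and 792 CPM in TR-107 libraries and 369, 381 and 359.7 CPM in DMSO libraries. SLC7A5 had 2992, 2983 and 3081 CPM in TR-107 libraries and 1368, 1447 and 1345 CPM in DMSO libraries. Both chains were high in all TR-107 libraries with little spread, and both log2 fold changes, 1.08 ± 0.04 for SLC3A2 and 1.12 ± 0.04 for SLC7A5 (SE), passed the test (edgeR adjusted p = 2.24e-26 and 7.33e-28).

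The ratio of SLC7A5 to SLC3A2 counts, which needs no scaling between libraries, was 3.87, 3.80 and 3.89 in TR-107 libraries and 3.71, 3.80 and 3.74 in DMSO libraries. The difference of the mean log2 ratios was 0.038, with an SD of 0.017 in each group, and an exact two-sided permutation test gave p = 0.1, the smallest that 3 against 3 libraries allow. Each chain changed by more than 1 on the log2 scale, and the ratio of the pair by 0.038.

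Of the other 3 tested light chains among the members, all of which pair with SLC3A2, 2 fell and 1 did not pass the test. SLC7A6, which exchanges cationic for neutral amino acids, had 60.6, 55.3 and 61.7 CPM in TR-107 libraries and 85.5, 85.1 and 85.4 CPM in DMSO libraries. SLC7A8 (LAT2), a second neutral amino acid exchanger, had 3.15, 2.90 and 2.19 CPM in TR-107 libraries and 5.83, 6.60 and 5.54 CPM in DMSO libraries. Both were low in every TR-107 library, with log2 fold changes of −0.53 ± 0.06 for SLC7A6 and −1.13 ± 0.24 for SLC7A8 (SE; edgeR adjusted p = 8.61e-10 and 8.42e-05). SLC7A7, which has the same exchange mode as SLC7A6, had 0.935, 0.329 and 0.606 CPM in TR-107 libraries and 0.803, 0.306 and 0.455 CPM in DMSO libraries. These ranges overlap near the limit of detection, and the log2 fold change of 0.27 ± 0.64 (SE) did not pass the test (edgeR adjusted p = 0.743). The level of SLC7A5 per kilobase was 68.4, 74.8 and 69.1 times that of SLC7A6 in TR-107 libraries and 22.2, 23.6 and 21.8 times in DMSO libraries.

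The cationic amino acid carriers, which bring in arginine and lysine, moved in opposite directions. SLC7A1 (gene ID 6541, chr13:29509414-29595688), the common carrier of this kind in dividing cells, had 483, 478 and 532 CPM in TR-107 libraries and 239, 239 and 232 CPM in DMSO libraries. SLC7A2, its relative best known from liver and activated macrophages, had 10.5, 11.3 and 9.51 CPM in TR-107 libraries and 36.6, 38.1 and 36.9 CPM in DMSO libraries. SLC7A1 was high and SLC7A2 low in every TR-107 library. The log2 fold change of SLC7A1 was 1.07 ± 0.04 and that of SLC7A2 was −1.84 ± 0.10 (SE; edgeR adjusted p = 1.55e-24 and 4.85e-19), a 2.11-fold rise beside a 3.57-fold lower level. The ratio of their levels per kilobase was 49.7, 45.4 and 60.2 in TR-107 libraries and 7.03, 6.75 and 6.76 in DMSO libraries.

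Among the SLC6 carriers, SLC6A9, the glycine carrier GlyT1, had 36.2, 34.4 and 33.6 CPM in TR-107 libraries and 7.06, 8.22 and 8.60 CPM in DMSO libraries. SLC6A6, the taurine carrier, had 32.6, 32.7 and 29.8 CPM in TR-107 libraries and 66.2, 63.2 and 72.2 CPM in DMSO libraries. Neither pair of groups overlapped. SLC6A9 rose 4.34-fold, or 2.12 ± 0.11 on the log2 scale (SE; edgeR adjusted p = 4.69e-20). SLC6A6 was 2.12-fold lower, at −1.09 ± 0.07 on that scale (SE; edgeR adjusted p = 2.51e-16).

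Of the SLC38 carriers of the surface, 2 rose and 1 fell. SLC38A2, the sodium-coupled carrier of alanine, glutamine and other small neutral amino acids that is known to respond to amino acid shortage, had 1307, 1382 and 1400.4 CPM in TR-107 libraries and 568, 545 and 589.8 CPM in DMSO libraries. SLC38A1, a carrier of the same system A, had 619, 636 and 648 CPM in TR-107 libraries and 375, 352 and 387 CPM in DMSO libraries. Both were high in all TR-107 libraries, with log2 fold changes of 1.26 ± 0.04 for SLC38A2 and 0.77 ± 0.04 for SLC38A1 (SE; edgeR adjusted p = 1.26e-28 and 1.57e-20). Per kilobase, SLC38A1 stood at 0.254, 0.247 and 0.248 of SLC38A2 in TR-107 libraries and at 0.354, 0.347 and 0.352 in DMSO libraries.

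SLC38A5, a system N carrier that exchanges protons while moving glutamine, histidine and serine, had 46.9, 49.0 and 47.6 CPM in TR-107 libraries and 69.0, 67.6 and 64.9 CPM in DMSO libraries. It was lower in every TR-107 library, by 1.40-fold (log2 fold change −0.49 ± 0.07 SE, edgeR adjusted p = 3.42e-08). SLC38A3, the other system N carrier, had 1.58, 1.37 and 1.30 CPM in TR-107 libraries and 2.19, 1.79 and 2.19 CPM in DMSO libraries. These groups did not overlap either, but the log2 fold change of −0.54 ± 0.39 (SE) did not pass the test (edgeR adjusted p = 0.243). The groups did not overlap for 62.4% of all tested genes, with 31.5% higher and 30.9% lower in TR-107.

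The facilitated carriers move amino acids or related compounds without coupling to sodium. SLC43A1 (LAT3), a carrier of branched-chain amino acids and phenylalanine, had 16.7, 17.3 and 19.2 CPM in TR-107 libraries and 5.46, 3.76 and 3.02 CPM in DMSO libraries. Its groups were far apart even though the DMSO libraries differed among themselves, and the rise was 4.40-fold (log2 fold change 2.14 ± 0.17 SE, edgeR adjusted p = 3.95e-14). SLC43A3, a relative known as a purine nucleobase carrier, had 37.2, 38.8 and 43.0 CPM in TR-107 libraries and 52.6, 54.3 and 59.6 CPM in DMSO libraries. SLC16A10, a carrier of aromatic amino acids, had 3.51, 3.29 and 4.47 CPM in TR-107 libraries and 7.60, 7.52 and 6.62 CPM in DMSO libraries. Both were lower in every TR-107 library, with log2 fold changes of −0.48 ± 0.08 for SLC43A3 and −0.94 ± 0.21 for SLC16A10 (SE; edgeR adjusted p = 6.09e-07 and 0.000167). The ratio of SLC43A1 to SLC43A3 per kilobase was 0.481, 0.476 and 0.479 in TR-107 libraries and 0.111, 0.0741 and 0.0542 in DMSO libraries.

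All 7 lysosomal carriers were tested, and their changes were small. After TR-107, 2 were higher, 2 were lower and 3 did not pass the test, none reached 2-fold, and the median log2 fold change was −0.04. The share called was 57.1%, beside 57.8% of all tested genes. SLC66A1, which exports cationic amino acids from the lysosome, had 17.9, 15.5 and 16 CPM in TR-107 libraries and 13.3, 11.4 and 11.9 CPM in DMSO libraries. SLC38A9, the arginine-gated carrier that signals lysosomal amino acids to mTORC1, had 16.1, 18.8 and 14.9 CPM in TR-107 libraries and 13.4, 11.1 and 14.2 CPM in DMSO libraries. The TR-107 libraries lay above the DMSO libraries for both, by a narrow gap for SLC38A9. The log2 fold change of SLC66A1 was 0.43 ± 0.13 and that of SLC38A9 was 0.36 ± 0.13 (SE; edgeR adjusted p = 0.00388 and 0.0164). SLC38A9 no longer passed without TR-107 replicate 2 (0.27, edgeR adjusted p = 0.122) or without DMSO replicate 2 (0.25, edgeR adjusted p = 0.142).

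SLC36A1, a proton-coupled exporter of small neutral amino acids, had 9.41, 12.5 and 12.4 CPM in TR-107 libraries and 16.9, 17.8 and 18.4 CPM in DMSO libraries. CTNS, the cystine exporter whose loss causes cystinosis, had 13.1, 13.1 and 15.5 CPM in TR-107 libraries and 19.5, 18.6 and 19.7 CPM in DMSO libraries. Both were lower in every TR-107 library, with log2 fold changes of −0.63 ± 0.13 for SLC36A1 and −0.47 ± 0.12 for CTNS (SE; edgeR adjusted p = 6.94e-05 and 0.00082). SLC36A4, SLC38A7 and SLC15A4 had overlapping groups. Their log2 fold changes were 0.13 ± 0.10 for SLC36A4, a relative of SLC36A1, −0.04 ± 0.12 for SLC38A7, a lysosomal glutamine carrier, and −0.21 ± 0.10 for SLC15A4, a carrier of histidine and small peptides (SE; edgeR adjusted p = 0.307, 0.764 and 0.0559). SLC15A4 had 24.9, 24.1 and 29.3 CPM in TR-107 libraries and 33.3, 28.4 and 29.4 CPM in DMSO libraries. It lay close to the threshold and passed as lower under 5 of the 14 alternatives.

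Besides these lysosomal and surface carriers, SLC38A6 and SLC38A10 belong to the SLC38 family but their substrates and membranes are less settled. SLC38A10 had 169, 164 and 172 CPM in TR-107 libraries and 128, 137 and 130.3 CPM in DMSO libraries. It rose 1.28-fold with no overlap (log2 fold change 0.35 ± 0.05 SE, edgeR adjusted p = 2.38e-08). SLC38A6 had 4.91, 3.89 and 1.63 CPM in TR-107 libraries and 3.26, 1.88 and 1.82 CPM in DMSO libraries. Its groups overlapped through TR-107 replicate 3, the lowest library; the log2 fold change was 0.58 ± 0.35 (SE, edgeR adjusted p = 0.151), and 0.93 without that library (edgeR adjusted p = 0.0138).

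The 6 members that were not tested were near or at 0. SLC7A9, the light chain that takes up cystine and dibasic amino acids in kidney and gut, had 9, 4 and 10 counts in TR-107 libraries and 0, 2 and 0 counts in DMSO libraries. Per total count, this is a ratio of 12.7 with an exact binomial 95% interval of 3.14 to 111, which covers counting error only. Its heavy chain SLC3A1 had 2 counts summed over the TR-107 libraries and 0 over the DMSO libraries, so the pair stayed near the limit of detection. SLC43A2 (LAT4) had 3 counts summed over TR-107 libraries and 7 over DMSO libraries, SLC38A4 had 6 and 2, and SLC6A14 had 3 and 0. SLC7A3, a cationic carrier, had 0 counts in all 6 libraries.

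Levels can be set beside each other only per length, here as CPM per kilobase of exon. By this measure, SLC7A5 had the highest level of all members, at 658 in TR-107 and 302 in DMSO (group means), followed in DMSO by SLC3A2 (295 in TR-107 and 139 in DMSO), SLC1A5 (193 and 114) and SLC38A2 (272 and 113). The DMSO ranges of SLC1A5 and SLC38A2 overlapped, and in TR-107 the mean of SLC38A2 was the higher. The 7 members with the highest DMSO levels, these 4 and SLC38A1, SLC7A1 and SLC38A10, were all called higher. Of all tested genes, at any level, 29.2% were called higher, and genes of like level were not compared. The 12 higher members had a median of 52.2 CPM per kilobase in TR-107 and 30.4 in DMSO, and the 11 lower members had 4.32 in TR-107 and 5.99 in DMSO. SLC1A4, SLC6A9 and SLC43A1 had the largest rises among the tested members, from low levels. They stood at 9.21, 8.05 and 6.56 CPM per kilobase in TR-107 and 1.84, 1.84 and 1.51 in DMSO. SLC66A1 and SLC38A9 were also called higher at low levels, 7.56 and 4.75 in TR-107 and 5.62 and 3.68 in DMSO. In the order of levels, SLC1A3 stood at place 18 in TR-107 and place 10 in DMSO, and SLC7A2 at place 25 in TR-107 and place 16 in DMSO.

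**Figure D3:**
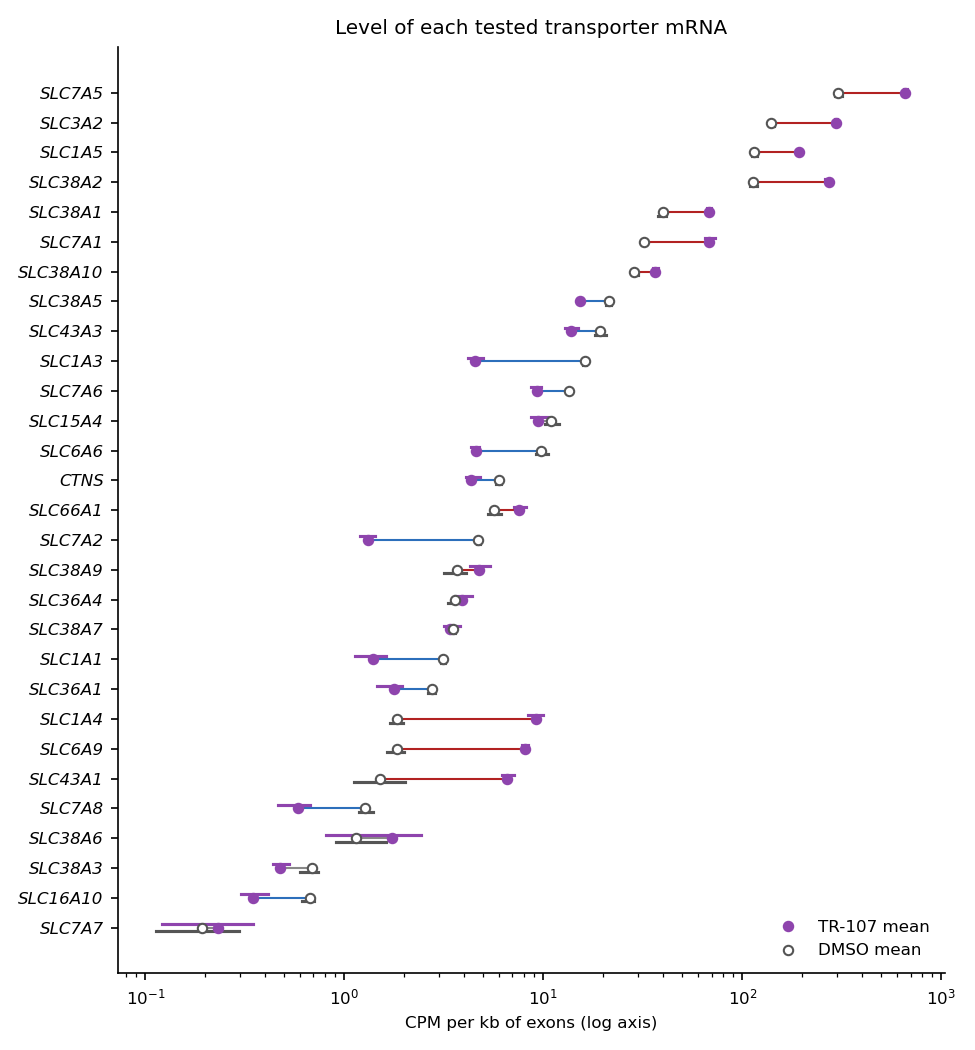
Mean level per kilobase of exon of each tested transporter in TR-107 (filled) and DMSO (open) on a log axis, ordered by the DMSO level, with thick bars for the range of 3 libraries and a joining line coloured red for higher, blue for lower and grey for not called. The members at the top, SLC7A5 at 658 in TR-107 and 302 in DMSO, lie higher in TR-107, and most members that lie lower in TR-107 have low levels in both groups.

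Summed per kilobase over the 35 members, the level was 1676, 1695 and 1739.7 in TR-107 libraries and 898, 916 and 896 in DMSO libraries, 1.89-fold higher. The plasma membrane members together reached 1630.2 ± 31.7 in TR-107 and 837 ± 12 in DMSO (SD, n = 3 each). Without SLC7A5, SLC3A2 and SLC38A2, the sum of the other plasma membrane members was 404 ± 9.27 in TR-107 and 282 ± 1.92 in DMSO (SD, n = 3 each), 1.43-fold higher. Most of it was SLC1A5 (193 in TR-107 and 114 in DMSO), SLC38A1 (68.0 and 39.8) and SLC7A1 (67.8 and 32.2), all called higher. The rise of the sum therefore does not describe each carrier, and 9 of the 20 tested plasma membrane members were called lower. The lysosomal carriers summed to 34.3, 34.6 and 36.5 in TR-107 libraries and 37.5, 34.2 and 36.6 in DMSO libraries, ranges that overlap. SLC7A5 made up 38.6% ± 0.276 of the summed level in TR-107 and 33.5% ± 0.880 in DMSO, and SLC38A2 16% ± 0.367 in TR-107 and 12.6% ± 0.636 in DMSO (SD, n = 3 each). The share of SLC1A5 was smaller after TR-107, 11.3% ± 0.0638 against 12.7% ± 0.234 in DMSO (SD, n = 3 each), although its mRNA rose.

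Read from the same fit, 4 lists of related genes set the members in context. ATF4 had 777 ± 10.5 CPM in TR-107 and 400 ± 8.19 CPM in DMSO (SD, n = 3 each; log2 fold change 0.96 ± 0.04 SE, edgeR adjusted p = 1.07e-24). Of the 17 tested genes of ATF4 and its amino acid response, 15 were higher, 0 were lower and 2 did not pass (88.2% called), with a median log2 fold change of 1.72. Over all tested genes, 57.8% were called, 29.2% higher and 28.6% lower. DDIT4, an inhibitor of mTORC1, ASNS, asparagine synthetase, and TRIB3, a pseudokinase of the stress response, had log2 fold changes of 4.43, 3.24 and 2.74. The members spread to both sides of 0, with a median of 0.13, while none of the tested genes of this list was called lower. The list was chosen with earlier results of these data known, so the contrast is a description only.

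SLC7A11, the light chain of the cystine and glutamate exchanger that also pairs with SLC3A2, had 378, 402 and 399 CPM in TR-107 libraries and 59.3, 56.6 and 71.9 CPM in DMSO libraries. All TR-107 libraries were far above all DMSO libraries, a rise of 6.27-fold (log2 fold change 2.65 ± 0.07 SE, edgeR adjusted p = 1.08e-15). It was the 1 higher gene among the 6 tested of 23 other amino acid and peptide carriers. MFSD12, a lysosomal cysteine importer, SLC6A17, a neutral amino acid carrier of synaptic vesicles, and SLC15A2, a peptide carrier, were lower, with log2 fold changes of −0.29, −0.46 and −1.47. Of the 6 tested genes, 66.7% were called, beside 57.8% of all tested genes. In this list 12 genes were at 0 in all 6 libraries.

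Among 34 tested genes of amino acid sensing by mTORC1, 8 were higher, 9 were lower and 17 did not pass, with a median log2 fold change of −0.01. The share called was 50%, beside 57.8% of all tested genes. SESN2, the leucine sensor sestrin 2, had 191 ± 1.26 CPM in TR-107 and 19.0 ± 0.299 CPM in DMSO (SD, n = 3 each; log2 fold change 3.33). WDR59, part of the GATOR2 complex, was higher by 0.40 on the log2 scale. CASTOR2, a relative of the arginine sensor CASTOR1, had a log2 fold change of −1.11, FNIP2, a folliculin partner, −0.89, and LAMTOR4, a Ragulator subunit, −0.56. General lysosome genes were likewise split, with 8 higher, 10 lower and 5 not called of 23 (78.3% called), and a median of 0.07. The higher genes with the smallest p were NPC1, a cholesterol exporter, TFE3, a transcription factor of lysosomal genes, and CTSL, a protease, with log2 fold changes of 0.95, 1.40 and 0.62. The lower ones were the proton pump subunits ATP6V1A and ATP6V1H, at −0.39 and −0.45, and NPC2, at −0.47.

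**Figure D4:**
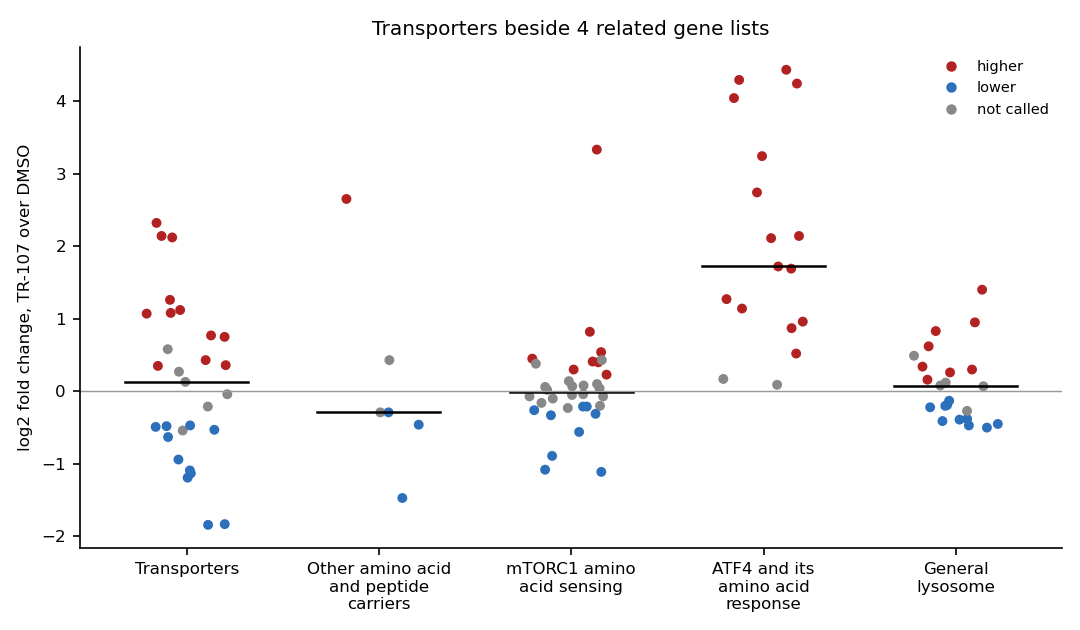
The log2 fold changes of the tested genes, TR-107 over DMSO, for the transporters and for 4 lists of related genes, with 1 point per gene, coloured by call, and a line at each median. The list of ATF4 and its amino acid response has its median at 1.72, the transporters have theirs at 0.13 with points on both sides of 0, and the mTORC1 list at −0.01.

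A second motif, CACGTG, the core of the element bound by TFEB, TFE3 and MYC proteins, was searched in the same windows. Its complement has the same letters, so 1 search covers both strands, and it shares no overlap with TGATGNAA in the stretches shown. It was found in the windows of 8 of 29 members (27.6%), against 2396 of 27303 genes (8.78%), and in 6 of 14 general lysosome genes (42.9%). The shares were 25% of the mTORC1 sensing genes, 5.88% of the other carriers and 7.14% of the ATF4 list. For TGATGNAA the shares were 21.4% of the ATF4 list and 0% of the mTORC1 sensing genes, the other carriers and the general lysosome genes. Counted by window, CACGTG was in 8 of 51 member windows (15.7%) against 2548 of 35114 (7.26%). By call, the 8 were SLC1A5, SLC7A5 and SLC43A1 among the higher members, SLC7A8, SLC38A5 and SLC36A1 among the lower members, and SLC7A7 and SLC38A7, which did not pass the test. It therefore occurred on both sides, in 3 of 12 higher members and in 3 of the 8 lower members with a window. SLC7A5 (chr16:87869583-87869682, minus strand) and SLC36A1 (chr5:151447503-151447602, plus strand) are shown as a surface carrier that rose and a lysosomal carrier that fell, with the motif in capitals.
SLC7A5: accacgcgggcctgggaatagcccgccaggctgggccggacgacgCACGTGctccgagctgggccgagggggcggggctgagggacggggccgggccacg
SLC36A1: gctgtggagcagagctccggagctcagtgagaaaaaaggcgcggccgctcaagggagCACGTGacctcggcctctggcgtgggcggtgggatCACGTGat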

How the data were processed

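RNA was extracted as total RNA, and poly(A)-selected libraries were sequenced as paired reads, per the labels' protocols. The deposited files hold raw counts per NCBI gene ID, 1 file per library; FastQC, Trimmomatic, HISAT2, featureCounts and the build hg38 are named in the submitters' processing notes, without versions. The sources used here name no strand or multi-mapping setting, so reads of overlapping genes cannot be told apart.

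Of 28395 IDs, 27745 matched a RefSeq symbol (GRCh38.p14), including all 35 members. Counts were tested with edgeR 4.0.16 in R 4.3.3 (TMM scaling, filterByExpr, robust quasi-likelihood fit by group, Benjamini-Hochberg at 0.05 over 13767 genes). CPM uses TMM-scaled library sizes, and levels per kilobase divide CPM by the union of GENCODE basic exons. Coordinates are GRCh38. The common biological coefficient of variation was 0.0739. No 2 libraries of the same group agreed within sampling noise. On simulated data with 13762 genes tested, the fit recovered 95.5% of 1.5-fold, 98.5% of 2-fold and 100% of 4-fold changes. The changed genes, 66 or 67 per fold, were drawn only from genes above a floor on mean counts. All genes were simulated with the same spread, so recovery at low counts was not measured. The alternatives were other scaling, filters, DESeq2 1.42.0, limma-voom (limma 3.58.1), a test against 2-fold, the replicate number as a block and leaving out each library. Intervals on counts cover counting error only.

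All members are accounted for: called and untested members are named, and of each related list up to 3 genes per direction with the smallest p, plus SLC7A11 and ATF4. Some genes that this rule would name are not reported here. The members, lists and tests were chosen with earlier results of these data known.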

Additional observations from a re-analysis of the deposited data

How the results depend on the processing

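Of the 23 called members, 22 kept their direction and call under all 14 alternatives of scaling, filter, tool, block or left-out library; SLC38A9 was the exception, as given above. Tested against a 2-fold change in place of no change, 5 members were called higher (SLC1A4, SLC6A9, SLC38A2, SLC43A1 and SLC7A5) and 2 lower (SLC1A3 and SLC7A2). Of all genes called under this test, 70.6% were higher. Under the other alternatives the members called higher numbered 11 to 13 and those called lower 11 or 12, also with 1 library left out. The median over all members was 0.06 with no scaling, 0.04 with a filter of 1 CPM in 3 libraries and −0.01 to 0.18 with 1 library left out. The plasma membrane median was −0.49 with the 1 CPM filter, which leaves fewer genes, and −0.28 to 0.1 with 1 library left out. The lysosomal median was −0.11 with no scaling and −0.14 to 0.01 with 1 library left out. All 3 medians changed sign with at least 1 library left out. With 1 library left out, SLC7A7 ranged from −0.12 (without TR-107 replicate 1) to 0.68 and was −0.01 without DMSO replicate 2, and SLC38A7 turned to 0.01 without TR-107 replicate 3; the cause was not tested, and neither gene was called under any of these. SLC15A4 passed as lower with RLE factors, no scaling, the 1 CPM filter, and without TR-107 replicate 3 or DMSO replicate 2 (−0.31 to −0.22). The log2 ratio difference of SLC7A5 to SLC3A2 was 0.031 to 0.048 with 1 library left out. With no scaling, the median of all genes moved by −0.06. For libraries with the same replicate number in the 2 groups, the deviations from the group means had correlations of −0.0311, −0.0185 and 0.0486. With 3 libraries per group, these values cannot show whether such libraries shared a day or a passage. With the replicate block, 12 members were higher and 11 lower, and 3976 of all genes were higher and 3942 lower; not every library correlated best with its own number. The 6 untested members had 23 or fewer counts summed over the libraries of either group, under the filter on low counts.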

Other observations

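Some members lie next to each other in the genome (GRCh38). SLC43A3 (chr11:57406954-57427580) and SLC43A1 (chr11:57484534-57515702), both on the minus strand and 57.0 kb apart, moved in opposite directions, with log2 fold changes of −0.48 and 2.14. SLC38A1 (chr12:46183063-46269043) and SLC38A2 (chr12:46358188-46372773), both on the minus strand and 89.1 kb apart, were both higher, at 0.77 and 1.26. SLC38A4, 392 kb further along, had 6 counts summed over TR-107 libraries and 2 over DMSO libraries. SLC7A8 and SLC7A7, 306 kb apart on chromosome 14, had log2 fold changes of −1.13 and 0.27, of which the first passed the test.

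Another counted gene overlaps 8 members, 6 of them called. Among their partners, SLC7A6OS had a log2 fold change of −0.20 beside −0.53 for SLC7A6, and CCDC24 one of 0.20 beside 2.12 for SLC6A9, and neither partner passed the test (edgeR adjusted p = 0.310 and 0.342). TRMT5, which overlaps SLC38A6, had a log2 fold change of −0.30 (edgeR adjusted p = 0.00165), while SLC38A6 had 0.58 and did not pass. PREPL, which overlaps the untested SLC3A1, had one of 0.87 (edgeR adjusted p = 1.17e-15). Whether reads were shared between these pairs was not tested.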
